A study of Mus musculus with 16 samples.

Results

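Laminin chains and the integrin subunits that bind basement membrane were followed across 3 groups of mouse ileal epithelium. The genes were the laminin chains Lama2, Lama3, Lama5, Lamb2, Lamb3 and Lamc1 and the integrin subunits Itgav, Itga6 and Itgb4. They comprised 9 of 8251 genes measured by a probe set of their own, and every probe set whose single gene symbol was one of them was taken, 14 of 12422. The genes had been picked with their tumour and WT signals in view, so their differences between groups are given as a description, without p-values. Counts of them past the threshold of the fit across all genes stand only beside the share of all genes. All 9 were bright enough to enter the fit across 7455 genes. The arrays were labelled carcinoma (n = 5), adenoma (n = 5) and WT (n = 6), and all of them held RNA of ileal epithelial cells cut from tissue by laser capture and amplified in 2 rounds before hybridisation. The genotype, strain, age and treatment of the mice, the number of animals and the way regions were chosen were not stated in the labels. Nor do the labels tie arrays to animals, so p-values are too small wherever 1 animal gave several arrays of a group.

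Laminins are secreted trimers of an alpha, a beta and a gamma chain that polymerise into the basement membrane under an epithelium. Lama3 and Lamb3 chains occur together in the laminin of epithelial anchoring sites, the Lama5 chain joins Lamb1 or Lamb2 and Lamc1 chains in the laminins of mature epithelial and vascular basement membranes, and the Lama2 chain is best known from muscle. Integrins are receptors of 1 alpha and 1 beta subunit. The Itga6 subunit pairs with Itgb4 in hemidesmosomes, the plaques that tie keratin filaments to laminin, or with Itgb1 elsewhere, while Itgav pairs with several beta subunits and binds mainly fibronectin, vitronectin and latent TGF-beta. In the intestine, basement membrane composition differs between crypt and villus.

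The 250 bases before a transcript start are shown for 4 of these genes (for Lamb3, the first of 2 windows). They were chosen because their probe sets had the largest differences from WT among the 5 of 9 genes with an entry in the promoter table used. In all 4 the annotated span of the gene begins upstream of that start, so the windows overlap the gene in part or whole. Sequences are from RefSeq on GRCm38.p6, 5′ to 3′ on the gene's strand, with matches on either strand to the GC box GGGCGG or the CACCC box CCACCC in capitals. Lamb3 lies at chr1:193301744-193301993 on the plus strand, Lama5 at chr2:180225860-180226109 on the minus strand, Itgav at chr2:83724147-83724396 on the plus strand and Lama2 at chr10:27616943-27617192 on the minus strand.
Lamb3: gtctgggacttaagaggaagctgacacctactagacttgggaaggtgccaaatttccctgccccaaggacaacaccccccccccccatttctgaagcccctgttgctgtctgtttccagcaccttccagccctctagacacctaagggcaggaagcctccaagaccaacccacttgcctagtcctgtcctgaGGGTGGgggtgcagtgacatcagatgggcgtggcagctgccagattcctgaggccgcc
Lama5: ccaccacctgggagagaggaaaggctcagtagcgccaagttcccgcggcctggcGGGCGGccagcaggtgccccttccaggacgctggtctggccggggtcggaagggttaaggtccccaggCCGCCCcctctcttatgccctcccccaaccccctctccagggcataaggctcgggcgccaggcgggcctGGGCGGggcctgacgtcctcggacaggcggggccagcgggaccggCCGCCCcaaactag
Itgav: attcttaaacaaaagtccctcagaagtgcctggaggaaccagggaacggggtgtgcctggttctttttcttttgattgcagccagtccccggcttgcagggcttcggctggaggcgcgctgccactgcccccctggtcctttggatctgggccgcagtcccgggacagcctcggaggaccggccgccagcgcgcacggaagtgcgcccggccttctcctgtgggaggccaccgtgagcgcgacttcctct
Lama2: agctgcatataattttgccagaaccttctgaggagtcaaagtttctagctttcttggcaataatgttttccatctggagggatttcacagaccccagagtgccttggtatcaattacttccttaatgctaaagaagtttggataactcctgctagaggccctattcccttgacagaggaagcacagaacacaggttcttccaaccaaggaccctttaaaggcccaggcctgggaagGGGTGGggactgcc

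The Lama5 window held 4 GC boxes, at bases 196 to 191, 128 to 123, 59 to 54 and 14 to 9 before the start, 2 of them on each strand. Of 32851 mouse promoter windows of this length, 32.7% held at least 1 such box. Lamb3 and Lama2 each held 1 CACCC box on the opposite strand, at bases 58 to 53 and 14 to 9 before the start, and 28.1% of windows held one. No box of either kind was in the Itgav window. The AP-1 letters TGANTCA, present in 6.75% of windows, were in none of the 6 windows of the 5 genes. No matches overlapped, and they describe the letters of the windows only.

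Array quality moved with the groups. The mean log2 signal of spiked-in control transcripts ran from 11.56 to 12.70 on carcinoma arrays, from 11.38 to 13.47 on adenoma arrays and from 12.44 to 14.73 on WT arrays, where WT 1, 2, 4 and 5 lay above every tumour array. The log2 ratio of 3′ to 5′ Gapdh signal, 1 of 2 such measures of RNA integrity and of the length of the amplified copies, was 4.95 to 6.45 in carcinoma, 5.52 to 6.12 in adenoma and 4.09 to 5.02 in WT. The same ratio for beta-actin did not run that way, with 5.54 to 6.56 in carcinoma, 5.46 to 6.19 in adenoma and 6.05 to 6.49 in WT. Of genes that mark epithelium, the adhesion molecule Epcam had median signals of 8875 in carcinoma, 8744 in adenoma and 9953 in WT. The intestinal transcription factor Cdx2 was dim, at the floor of 46.9 on 3 of 5 adenoma arrays, 1 of 6 WT arrays and no carcinoma array. The fibroblast proteoglycan Dcn was also bright, with medians of 6745 in carcinoma, 4445 in adenoma and 3649 in WT. Across all 7455 genes the median log2 difference from WT was -0.14 in both tumours, -0.01 in carcinoma and -0.02 in adenoma after quantile normalization, and 0.15 and 0.12 with array medians aligned. No scaling turned the direction of any of the 9 genes against WT. Signals below 46.9 (5.55 on the log2 scale) were raised to this floor before log2 was taken.

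By the brightest probe set of each gene, both tumour groups had high signal for Lamb3, Lama5, Lama3 and Itgav, and low signal for Lama2, relative to WT. The other Itgav probe sets did not show this, and the second Lama5 set overlapped WT. Itga6, Itgb4, Lamb2 and Lamc1 differed less. In carcinoma against WT, the arrays of the groups did not overlap for 4 of the 9 genes (6.28% of all genes tested). All 4 lay wholly above WT (3.13% of all genes) and none wholly below (3.15%). In adenoma against WT, 5 did not overlap (5.79% of all genes), of which 4 lay wholly above (3.06%) and 1 wholly below (2.74%). At a limma adjusted p of 0.05, 5 of the 9 were called higher in carcinoma (4.16% of all genes) and 1 lower (4.9%), together against 9.05% of all genes. In adenoma 4 were called higher (4.02%) and 1 lower (4.25%), together against 8.28%. Nothing is read from these shares, since the genes were chosen on the same contrasts. Their median log2 difference from WT was 1.0 in carcinoma and 1.07 in adenoma.

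**Figure D1:**
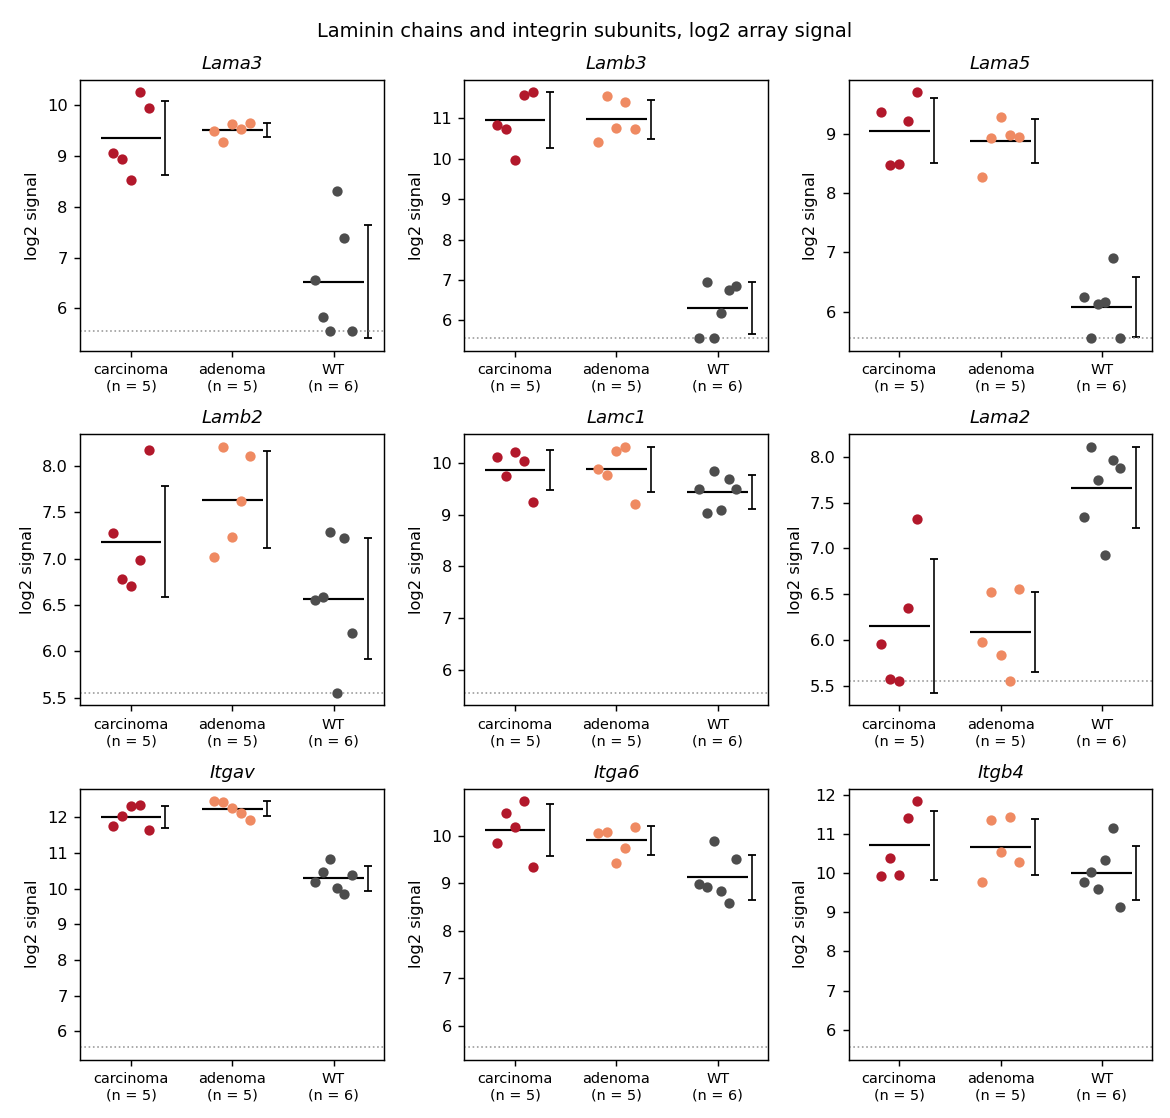
Log2 signal of the 9 genes on each array, with 1 point per array, the group mean as a bar and the SD as an error bar beside it, for carcinoma, adenoma and WT. Dotted lines mark the floor of 5.55, and vertical scales differ between panels. Each panel shows the brightest probe set of its gene. With these sets, Lamb3, Lama3, Lama5 and Itgav have all 10 tumour arrays above all 6 WT arrays.

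Lamb3, the beta chain of the anchoring laminin, had signals of 1839.1, 1710.9, 1003.4, 3065.2 and 3222.4 on the carcinoma arrays. The adenoma arrays had 1376.5, 3021.8, 1729.4, 2724.7 and 1699.3, and the WT arrays ran from 38.3 to 122.8 with a median of 90.1. The lowest tumour array was thus far above the highest WT array, and 2 WT arrays were at the floor. Mean log2 signal was 10.96 ± 0.69 in carcinoma, 10.98 ± 0.49 in adenoma and 6.30 ± 0.64 in WT (SD, n = 5, 5 and 6). The log2 difference from WT was 4.65 ± 0.36 in carcinoma and 4.67 ± 0.36 in adenoma (± SE), or 25.2-fold and 25.5-fold. A second Lamb3 probe set, 92759_at, had 884.5, 699.6, 579.5, 1925.9 and 1996.0 in carcinoma and 616.7, 1009.5, 914.0, 736.6 and 1376.1 in adenoma. Its WT arrays spread more, from 13.2 to 383.8 with a median of 119.3, and still lay below every tumour array. It gave smaller differences of 3.03 ± 0.49 and 2.78 ± 0.49, or 8.15-fold and 6.85-fold. The brighter Lamb3 set, 161188_f_at, is of a kind whose probes may also match related sequences, and which transcripts it reads was not tested.

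Lama3, the alpha chain of the same laminin, was read by 1 probe set. Its signals were 531.7, 490.2, 370.0, 1217.4 and 986.4 in carcinoma and 717.1, 617.4, 784.2, 731.8 and 795.1 in adenoma, against 32.3 to 314.5 (median 75.6) in WT. Adenoma arrays were tightly grouped, with an SD of 0.15 on the log2 scale, whereas the SD was 0.72 in carcinoma and 1.12 in WT. Mean log2 signal was 9.34 in carcinoma, 9.50 in adenoma and 6.53 in WT. The log2 difference from WT was 2.82 ± 0.45 in carcinoma and 2.98 ± 0.45 in adenoma. The WT spread came with 2 arrays at the floor (WT 3 and WT 6), and WT 4 was the highest at 314.5. WT 3 and WT 6 were also the 2 WT arrays with spike-in signal inside the tumour range, and against them alone the differences were 3.79 and 3.95.

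Lama5, the alpha chain of mature epithelial basement membranes, had signals of 661.2, 355.9, 360.9, 591.4 and 830.8 in carcinoma. In adenoma they were 309.3, 484.9, 618.8, 501.9 and 494.6, and in WT 30.6 to 119.8 with a median of 70.6. The tumour arrays did not overlap the WT arrays. Mean log2 signal was 9.05 ± 0.54 in carcinoma, 8.88 ± 0.37 in adenoma and 6.09 ± 0.50 in WT, and the difference from WT was 2.96 ± 0.30 in carcinoma and 2.79 ± 0.30 in adenoma. The second Lama5 probe set, 161702_f_at, had 24.4, 129.8, 254.7, 401.7 and 372.9 in carcinoma, 202.4, 320.4, 139.3, 264.5 and 208.5 in adenoma and 21.6 to 229.1 (median 99.0) in WT. Its groups overlapped, with carcinoma 1 at the floor, and its differences were 0.94 ± 0.52 and 1.16 ± 0.52.

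Lamb2, a beta chain that takes the place of Lamb1 in some laminins, had low signals on all arrays. They were 155.0, 109.6, 103.9, 126.2 and 288.6 in carcinoma, 129.1, 295.4, 150.5, 196.7 and 274.7 in adenoma and 23.3 to 156.6 (median 95.0) in WT. Both tumour groups overlapped WT, and the differences were 0.61 ± 0.35 in carcinoma and 1.07 ± 0.35 in adenoma. With the Gapdh ratio as a covariate they were 0.07 and 0.47. Lamc1, the gamma chain of most laminins, gave opposite directions with its 2 probe sets. The brighter, 161706_f_at, had 1105.9, 857.3, 1192.4, 1047.3 and 607.8 in carcinoma, 952.8, 871.1, 1202.4, 1267.4 and 588.5 in adenoma and 523.7 to 919.2 (median 723.6) in WT. That set overlapped throughout, with differences of 0.43 ± 0.26 and 0.44 ± 0.26. The dimmer, 102404_at, had 89.0, 51.1, 92.1, 97.2 and 113.6 in carcinoma, 48.1, 127.3, 84.1, 20.8 and 75.3 in adenoma and 100.5 to 250.3 (median 133.7) in WT, with differences of -0.78 ± 0.31 and -1.05 ± 0.31. No direction is therefore given for Lamc1.

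Lama2, the alpha chain of muscle laminin, ran the other way. Its signals were 62.2, 47.7, 21.8, 81.7 and 160.4 in carcinoma and 63.1, 92.3, 56.9, 23.9 and 93.8 in adenoma, against 121.9 to 276.7 (median 225.0) in WT. All adenoma arrays lay below all WT arrays, while carcinoma 5 lay above WT 4. Mean log2 signal was 6.15 ± 0.73 in carcinoma, 6.09 ± 0.44 in adenoma and 7.66 ± 0.44 in WT. The difference was -1.51 ± 0.33 in carcinoma and -1.57 ± 0.33 in adenoma, or 2.84-fold and 2.97-fold lower, and 1 array of each tumour group was at the floor. Without carcinoma 5 the carcinoma difference was -1.80. A floor at the 40th percentile of all values (113.0), near the lowest WT array, gave -0.74 in carcinoma and -0.84 in adenoma.

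The mean signal of smooth muscle markers moved with Lama2, though not every marker did. The mean log2 signal over the 9 measured genes of that list ran from 7.34 to 7.99 on carcinoma arrays, from 7.64 to 8.49 on adenoma arrays and from 8.62 to 9.18 on WT arrays, so every WT array lay above every tumour array. Of 8 tested, 2 fell and none rose in carcinoma, and 2 fell and 1 rose in adenoma. The smooth muscle myosin Myh11 fell by 2.79 on the log2 scale in carcinoma (adjusted p = 0.000405) and by 2.49 in adenoma (adjusted p = 0.00131). The smooth muscle actin Acta2 fell by 1.94 (adjusted p = 0.0108) and by 1.68 (adjusted p = 0.0281), and the marker Smtn was at the floor on all 16 arrays. The Acta2 call was lost in both tumours with the Gapdh covariate, at -1.83 in carcinoma (adjusted p = 0.341) and -1.56 in adenoma (0.548). It was also lost with spike-in signal added as a covariate, at -1.57 (0.155) and -1.32 (0.234). In adenoma it was lost with array medians aligned, at -1.39 (0.0809). With WT 3 and WT 6 as the only WT arrays the adenoma difference was larger, at -1.98, but did not pass (0.0873). The adenoma call was also lost without WT 1, 2, 3 or 5 or adenoma 1, 2 or 5 (0.0506 to 0.0905). With the Gapdh covariate Myh11 did not pass in adenoma (adjusted p = 0.114), though its difference was larger, at -2.87. The part of these cells in the Lama2 difference was not tested. In such captures, fewer cells of a type and less RNA per cell cannot be told apart.

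Itgav, the alpha subunit of the fibronectin and vitronectin receptors, had the largest difference from WT of the 3 receptor subunits, with its brightest probe set. Probe set 104386_f_at had 3457.0, 4164.0, 5077.8, 5137.3 and 3214.1 in carcinoma and 5604.8, 5446.7, 4878.7, 4433.8 and 3911.2 in adenoma. WT arrays ran from 917.6 to 1821.4 with a median of 1248.9, below every tumour array. Mean log2 signal was 12.01 ± 0.31 in carcinoma, 12.23 ± 0.21 in adenoma and 10.29 ± 0.35 in WT, and the difference was 1.72 ± 0.24 in carcinoma and 1.94 ± 0.24 in adenoma, or 3.30-fold and 3.84-fold. The other 2 Itgav probe sets did not show this. Set 104385_i_at ran from 213.1 to 297.8 in carcinoma, from 127.9 to 308.7 in adenoma and from 71.7 to 345.0 in WT, with differences of 0.40 ± 0.35 and 0.31 ± 0.35. Set 98366_at was at the floor on 2 of 5 carcinoma, 4 of 5 adenoma and 3 of 6 WT arrays, with differences of -0.07 ± 0.29 and -0.39 ± 0.29. With the mean of the 3 sets the differences were 0.68 and 0.62. In this array's naming, the letter f marks a probe set whose probes may also match related sequences, and which transcripts set 104386_f_at reads was not tested. Among others, the sets used for Lamb3, Lamc1, Sdc1, Lamb1, Itgb1, Itgb5 and Cd151 and the second Lama5 set carry this letter too. What those sets read was not tested either.

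Itga6, the alpha subunit of the laminin receptors, had signals of 927.6, 1431.3, 1165.7, 1698.5 and 652.0 in carcinoma and 1061.8, 1083.7, 690.4, 858.5 and 1170.9 in adenoma, against 385.2 to 943.6 (median 497.7) in WT. WT 3 and WT 6 reached into the tumour ranges, and the other 4 WT arrays lay below all tumour arrays. The difference was 1.0 ± 0.29 in carcinoma and 0.78 ± 0.29 in adenoma. The 4 low arrays were WT 1, 2, 4 and 5, whose spike-in signal exceeded all tumour arrays, and without them the differences were 0.42 ± 0.37 and 0.20 ± 0.37. Itgb4, the hemidesmosome partner of Itga6, had signals of 976.7, 1340.9, 996.5, 2709.2 and 3664.7 in carcinoma, 870.8, 2623.5, 1479.2, 2773.5 and 1242.5 in adenoma and 558.2 to 2271.3 (median 957.0) in WT. Its groups overlapped widely, with SDs of 0.87, 0.72 and 0.69, and the differences were 0.70 ± 0.42 in carcinoma and 0.67 ± 0.42 in adenoma.

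**Figure D2:**
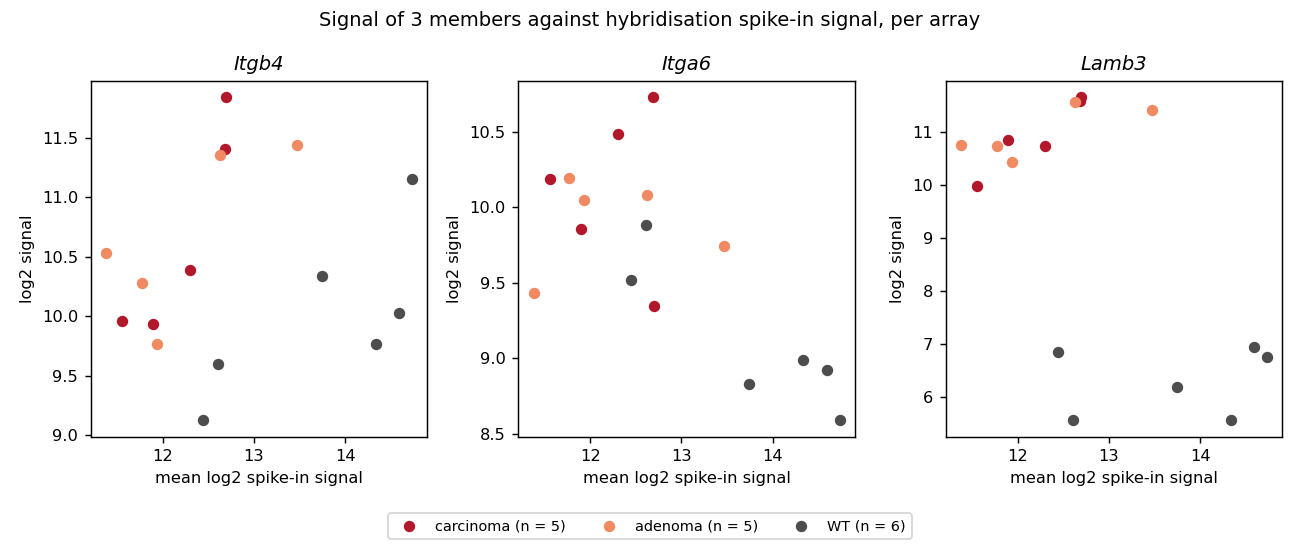
Log2 signal of Itgb4, Itga6 and Lamb3 (vertical) against the mean log2 spike-in signal (horizontal), with 1 point per array for carcinoma (n = 5), adenoma (n = 5) and WT (n = 6). WT 1, 2, 4 and 5, which lie above all tumour arrays on the horizontal axis, are the 4 lowest arrays for Itga6, and all tumour arrays lie above all WT arrays for Lamb3.

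Within each group, Itgb4 signal was high on arrays of high spike-in signal, such as carcinoma 4 and 5, adenoma 2 and 4 and WT 5. With spike-in signal added as a covariate, its differences from WT were 1.74 ± 0.41 in carcinoma and 1.70 ± 0.41 in adenoma. With the Gapdh ratio as a covariate they were 0.22 ± 0.69 and 0.14 ± 0.73. Against WT 3 and WT 6 alone they were 1.34 ± 0.57 and 1.31 ± 0.57. Lamb3 held values of 4.10 to 5.23 under the 2 covariates in both tumours, and Lama5 held 2.46 to 3.24. Lama3 was 2.60 to 3.62, Itgav 1.51 to 2.49, and Lama2 -2.11 to -1.38. The share of any difference that array quality accounts for was not tested.

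**Figure D3:**
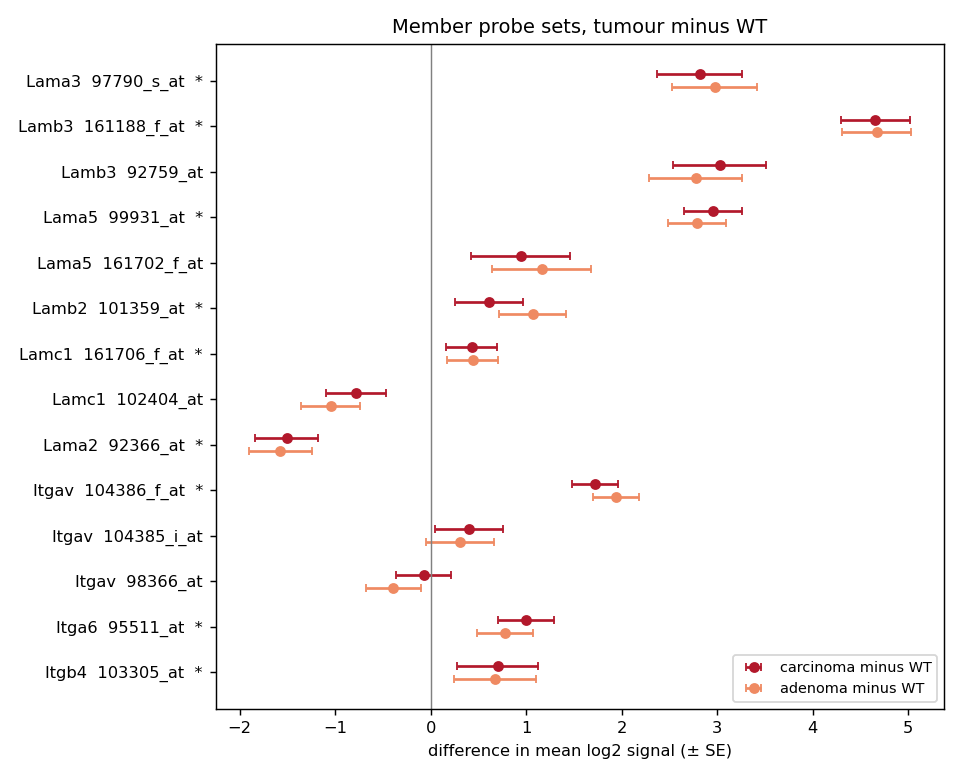
Difference in mean log2 signal from WT (horizontal, ± SE) of each of the 14 probe sets (vertical), for carcinoma and adenoma. Asterisks mark the probe set used for a gene. Both Lamb3 sets lie near or above 3 in carcinoma, whereas the Itgav and Lamc1 sets disagree within their gene.

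Carcinoma and adenoma overlapped for all 9 genes and all 14 probe sets, whereas 0.537% of all genes had no overlap, 0.161% with carcinoma wholly above and 0.376% with it wholly below. None of the 9 was called at a limma adjusted p of 0.05, and 0.0268% of all genes were. The largest difference of carcinoma from adenoma was in Lamb2, at -0.45 ± 0.37. Differences of the others were 0.22 ± 0.31 for Itga6, 0.17 ± 0.32 for Lama5, 0.06 ± 0.35 for Lama2 and 0.03 ± 0.44 for Itgb4. They were -0.22 ± 0.25 for Itgav, -0.16 ± 0.47 for Lama3, -0.02 ± 0.38 for Lamb3 and -0.01 ± 0.28 for Lamc1. With errors of this size, equal signal in both tumours is not shown for any of the 9 genes.

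Patterns over the 16 arrays were compared by the root mean square difference of log2 values, each gene minus its own mean, which is a description and carries no test. The brightest probe set of each gene was used, so distances of Lamc1 and Itgav hold for 161706_f_at and 104386_f_at only. Values were not scaled, so genes that vary little lie close together whatever their pattern. Among the 9 genes the closest pairs were Lamc1 with Itga6 (0.54), Itgav with Itga6 (0.57) and Lama3 with Lama5 (0.61). The farthest were Lama2 and Lamb3 (3.04). Outside them, the genes nearest to Lamb3 were the plasminogen activator Plat (0.65), the annexin Anxa1 (0.70), Wfdc18 (0.71) and the annexin Anxa8 (0.74), against a median of 2.45 over 7446 genes. Nearest to Itgav were the pterin synthesis enzyme Gch1, the transcription factor Foxa1 and the glycosyltransferase B4galt6 (0.44 each), then the potassium channel Kcnk1 (0.46), with a median of 1.14. Itgb4 was tracked most closely by the arginine methyltransferase Carm1 (0.27), the oxidase subunit Cyba (0.31), the non-muscle myosin Myh9 (0.32) and the fatty acid synthase Fasn (0.32), with a median of 0.95. Lama2 had Ces1g (0.43), Ncam1 (0.46), Tlr6 (0.50) and Itih5 (0.51) nearest, and Lama5 had Psapl1 (0.46), Tubb6 (0.52), Akr1b8 (0.53) and Arg1 (0.53).

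Genes around the laminins and integrins were examined on 7 lists of 118 genes, of which 89 were measured and 75 tested. Col4a1, Col18a1, Npnt, Sdc1 and Fn1 rose in both tumours, while the other laminin chains and the beta subunit Itgb1 did not pass the test. In carcinoma 6 rose and 2 fell (10.7% of those tested, against 9.05% of all genes). In adenoma 5 rose and 3 fell (10.7%, against 8.28% of all genes). In carcinoma against adenoma limma called none of the 75.

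**Figure D4:**
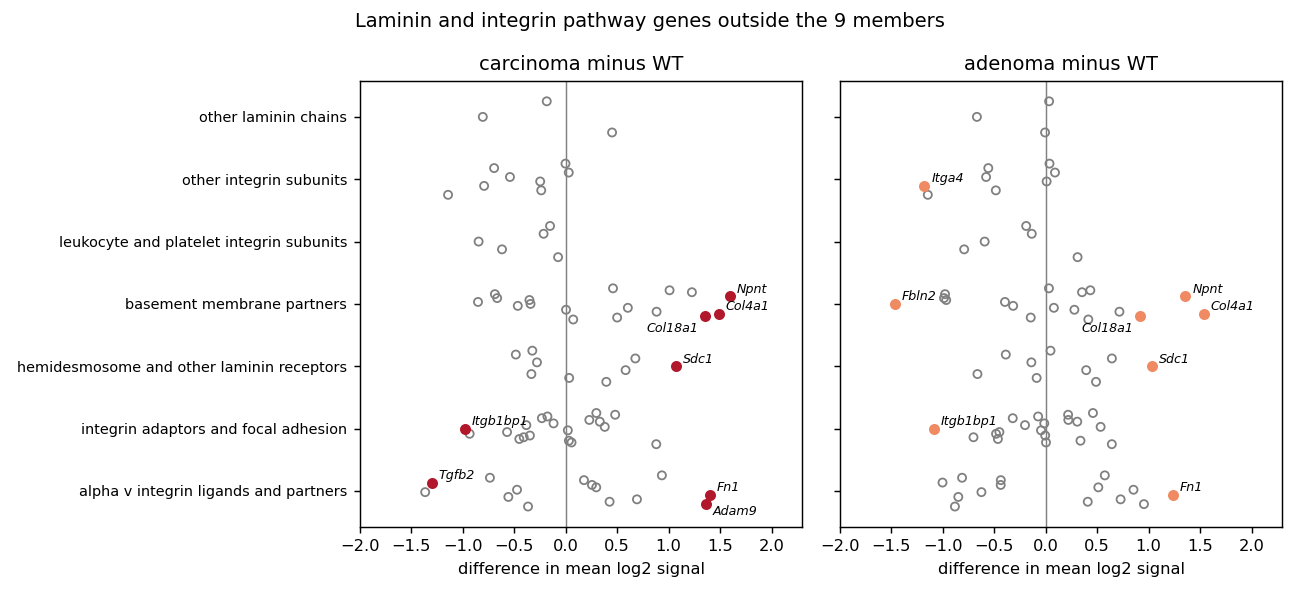
Difference in mean log2 signal from WT (horizontal) of the 75 tested genes on the 7 lists (vertical), for carcinoma on the left and adenoma on the right. Filled points passed a limma adjusted p of 0.05 and are named. Most calls lie among the basement membrane partners and the list of ligands and partners of Itgav.

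Of the basement membrane partners, 3 of 17 rose in each tumour, none fell in carcinoma and 1 fell in adenoma. Col4a1, a chain of the collagen IV network that underlies laminin, had signals of 3757.7 to 7178.8 in carcinoma, 3753.3 to 9607.2 in adenoma and 1255.4 to 2775.1 in WT. It rose by 1.48 ± 0.28 in carcinoma (adjusted p = 0.00189) and by 1.53 ± 0.28 in adenoma (adjusted p = 0.00161). Npnt, or nephronectin, a basement membrane ligand of integrins, rose by 1.59 ± 0.31 (adjusted p = 0.00221) and by 1.36 ± 0.31 (adjusted p = 0.00873). Its signals were 534.8 to 1012.6 in carcinoma, 454.1 to 957.6 in adenoma and 136.5 to 360.4 in WT, with no overlap between tumours and WT. Col18a1, the collagen from which endostatin is cut, rose by 1.35 ± 0.25 (adjusted p = 0.00133) and by 0.92 ± 0.25 (adjusted p = 0.0255), and of its 3 other probe sets 2 gave larger differences and 1 gave 0.18 and 0.11. Fbln2, a fibulin that binds laminin, fell in adenoma by 1.47 ± 0.31 (adjusted p = 0.00494), and in carcinoma its difference was -0.34 ± 0.31 (adjusted p = 0.527). With WT 3 and WT 6 as the only WT arrays the adenoma difference of Fbln2 was -0.96 (adjusted p = 0.311), and with spike-in signal added as a covariate its adjusted p was 0.0686. With the Gapdh covariate Col4a1 differed by 1.73 (adjusted p = 0.0781) and 1.81 (adjusted p = 0.113), and of the 75 genes Npnt alone passed, in carcinoma. The adenoma call of Col18a1 was lost when WT 3 (adjusted p = 0.0553), adenoma 2 (0.0505), adenoma 3 (0.0716) or adenoma 5 (0.0623) was left out. Its adenoma difference was 0.99 with only WT 3 and WT 6 (adjusted p = 0.131) and 0.95 with the spike-in covariate (0.0911), and neither passed.

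Among the hemidesmosome genes and other laminin receptors, 1 of 9 rose in each tumour and none fell. Syndecan Sdc1, a heparan sulphate co-receptor that binds laminin, had signals of 651.1 to 978.0 in carcinoma, 539.6 to 1025.1 in adenoma and 288.9 to 382.0 in WT. It rose by 1.07 ± 0.23 in carcinoma (adjusted p = 0.00522) and by 1.03 ± 0.23 in adenoma (adjusted p = 0.00767), and its second probe set by 2.31 ± 0.47 and 2.05 ± 0.47. With WT 3 and WT 6 as the only WT arrays the main Sdc1 set did not pass, at 0.94 (adjusted p = 0.160) and 0.90 (adjusted p = 0.183). Plec, the plectin that joins the Itgb4 tail to keratin, differed by 0.58 (adjusted p = 0.301) and 0.39 (adjusted p = 0.501), and Cd151, a tetraspanin partner of laminin-binding integrins, by 0.39 and 0.49 (adjusted p = 0.406 and 0.310). Dag1, the dystroglycan precursor, differed by 0.03 and -0.09. The hemidesmosome collagen Col17a1 was at the floor on all 10 tumour arrays and on 3 of 6 WT arrays, and was not tested.

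None of 3 other laminin chains passed the test in either tumour. Lamb1, the common beta chain, differed by -0.18 ± 0.27 in carcinoma and 0.03 ± 0.27 in adenoma, Lama4, known from vessels, by -0.81 ± 0.49 and -0.67 ± 0.49, and Lama1 by 0.45 ± 0.47 and -0.01 ± 0.47. Of 8 other integrin subunits tested, none passed in carcinoma and 1 fell in adenoma. Itgb1, the beta subunit of most matrix receptors, had signals of 14669.2 to 25616.6 in carcinoma, 14143.2 to 31212.4 in adenoma and 9912.4 to 26850.5 in WT, with differences of 0.03 ± 0.30 and 0.09 ± 0.30 (adjusted p = 0.964 and 0.884). The laminin-binding subunit Itga3 differed by -0.24 ± 0.31 and -0.48 ± 0.31, the collagen-binding subunit Itga2 by -1.14 ± 0.50 and -1.15 ± 0.50, and Itgb5, a partner of Itgav, by 0.00 and 0.04. Itgb3, another partner of Itgav, differed by -0.70 and -0.56, and Itga7 and Itga8 lay between -0.58 and 0.01. Itga4, a fibronectin receptor subunit of leukocytes, fell in adenoma by 1.18 ± 0.29 (adjusted p = 0.0162), where 4 of 5 arrays were at the floor, and its carcinoma difference was -0.79 (adjusted p = 0.0966). That call was lost with quantile normalization (adjusted p = 0.0965), with array medians aligned (adjusted p = 0.0608), with only WT 3 and WT 6 (adjusted p = 0.278) and under both covariates. The mean of its probe sets did not pass either (adjusted p = 0.127), and its second set gave -0.52 in adenoma and -0.76 in carcinoma. The mean log2 signal of lymphocyte and plasma cell markers was 6.21 to 6.91 on carcinoma, 6.08 to 6.64 on adenoma and 6.76 to 7.37 on WT arrays. Of 9 tested, 1 fell in carcinoma and 3 in adenoma, and their part in the Itga4 difference was not tested. None of 5 leukocyte and platelet subunits passed in either tumour.

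Of 14 tested genes listed as ligands or partners of Itgav, 2 rose and 1 fell in carcinoma and 1 rose in adenoma. Binding to Itgav was not tested for any of them. Fn1, or fibronectin, had signals of 898.5 to 2451.7 in carcinoma, 878.0 to 2257.0 in adenoma and 439.0 to 749.6 in WT. It rose by 1.40 ± 0.31 (adjusted p = 0.00711) and by 1.23 ± 0.31 (adjusted p = 0.0186), and with WT 3 and WT 6 as the only WT arrays it did not pass, at 1.31 (adjusted p = 0.182) and 1.15 (adjusted p = 0.266). Without adenoma 2 its adenoma difference was 1.17 (adjusted p = 0.0515). Adam9, a membrane protease whose disintegrin domain binds integrins, rose in carcinoma by 1.36 ± 0.39 (adjusted p = 0.0334), with 0.95 in adenoma (adjusted p = 0.144). That call was lost without WT 4, WT 5 or any of carcinoma 1 to 4, at adjusted p of 0.0563 to 0.0885. With the spike-in covariate the Adam9 difference was 0.79 (adjusted p = 0.412), with the Gapdh covariate 1.92 (adjusted p = 0.193) and with only WT 3 and WT 6 it was 1.10 (adjusted p = 0.314). Tgfb2, a TGF-beta, fell in carcinoma by 1.30 ± 0.34 (adjusted p = 0.0205), with -1.0 in adenoma (adjusted p = 0.0791), and did not pass without carcinoma 1 (adjusted p = 0.0585) or carcinoma 5 (0.0583). The Tgfb2 difference was -0.96 with quantile normalization (adjusted p = 0.0657), -0.80 with the spike-in covariate (0.323), -0.40 with the Gapdh covariate (0.795) and -0.71 with only WT 3 and WT 6 (0.523). Whether these 2 differ between the tumours was not shown, since neither was called in carcinoma against adenoma. Of 19 adaptors and focal adhesion genes 1 fell in each tumour: Itgb1bp1, which binds the Itgb1 tail, at -0.98 ± 0.27 (adjusted p = 0.0280) and -1.09 ± 0.27 (adjusted p = 0.0173). Its other 2 probe sets gave 1.15 and 1.11, and -0.03 and 0.00. Its carcinoma call was lost without WT 1, 3 or 4 or any of carcinoma 1 to 4 (adjusted p of 0.0523 to 0.0720), and its adenoma call without adenoma 1 (0.0562) or adenoma 5 (0.0536). Both Itgb1bp1 calls were lost with array medians aligned (adjusted p = 0.110 in carcinoma and 0.0609 in adenoma) and with only WT 3 and WT 6 (0.512 and 0.397). They were also lost under either covariate. The differences were -1.09 and -1.21 with the Gapdh covariate, and -0.68 and -0.79 with the spike-in covariate.

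The mean log2 signal of fibroblast markers per array was 7.92 to 8.53 on carcinoma, 7.53 to 8.11 on adenoma and 7.88 to 8.61 on WT arrays. Of 13 tested, 2 rose and 2 fell in carcinoma and 1 fell in adenoma. The brighter probe set of the collagen Col1a1 rose in carcinoma by 1.41 (adjusted p = 0.00054), whereas its second probe set ran the other way, at -1.08 in carcinoma and -0.93 in adenoma. The mean of both sets differed by 0.16 in carcinoma (adjusted p = 0.782), so no direction is given for Col1a1. Its call was also lost with the Gapdh covariate, at 1.40 (adjusted p = 0.0917). Dcn rose in carcinoma by 1.08 (adjusted p = 0.0389). It did not pass with quantile normalization, at 1.02 (adjusted p = 0.0584). The Gapdh covariate (1.66, adjusted p = 0.140) and only WT 3 and WT 6 (1.12, 0.181) gave larger differences that did not pass. The Dcn call was also lost without WT 2, 4 or 6 or carcinoma 1, 2, 4 or 5 (0.0530 to 0.114). The collagen Col6a1 fell by 1.04 (adjusted p = 0.0350), a call lost with array medians aligned (0.0858), the Gapdh covariate (0.561), only WT 3 and WT 6 (0.391), and without WT 1, 2, 3 or 5 or carcinoma 1, 2 or 3 (0.0528 to 0.106). With the spike-in covariate the Col6a1 difference was -0.58 (adjusted p = 0.427). Endothelial markers averaged 7.96 to 8.72, 8.23 to 8.63 and 7.73 to 8.39 in carcinoma, adenoma and WT, and of 9 tested 1 rose in adenoma, the cadherin Cdh5, by 2.17 (adjusted p = 0.000237), and none passed in carcinoma. Epithelial markers averaged 11.01 to 11.77 in carcinoma, 11.28 to 11.67 in adenoma and 11.63 to 12.39 in WT, and 2 of 12 fell in each tumour. In carcinoma these were Fabp2 (-3.43, adjusted p = 0.00156) and Krt20 (-1.22, adjusted p = 0.0112). In adenoma they were Fabp2 (-2.16, adjusted p = 0.0418) and Cdx1 (-1.56, adjusted p = 0.0493). None of these calls held with only WT 3 and WT 6 (adjusted p of 0.114 to 0.515). With the Gapdh covariate Fabp2 (0.543) and Krt20 (0.461) were lost in carcinoma. Krt20 was also lost there with array medians aligned (0.0523) and the spike-in covariate (0.155). In adenoma Fabp2 was lost with array medians aligned (-1.86, 0.0880) and the spike-in covariate (-2.48, 0.0988). It was also lost there without WT 1, 2, 3 or 4, adenoma 2, 4 or 5 or carcinoma 3 (0.0503 to 0.118). The adenoma call of Cdx1 was also lost with quantile normalization (0.0604), array medians aligned (0.0939), the mean of probe sets (0.0506) and the spike-in covariate (0.476). Leaving out WT 2, 4, 5 or 6, adenoma 1, 2, 3 or 5 or any of carcinoma 1 to 4 lost it too (0.0569 to 0.139). Macrophage and neutrophil markers averaged 7.30 to 8.06, 7.17 to 7.69 and 7.10 to 7.78 in carcinoma, adenoma and WT, and neuron and glia markers 6.58 to 7.17, 6.48 to 7.33 and 6.85 to 7.10. None of either list was called. The part of these cells in the differences of Col4a1, Npnt, Fn1 and the 9 laminin and integrin genes was not tested.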

How the data were processed

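RNA of captured ileal epithelial cells was amplified, labelled and hybridised to Affymetrix MG_U74Av2 arrays, per the labels' protocols. The authors deposited intensities of 12488 probe sets, on a linear scale. The software behind them was not given in the sources used here. Trimmed means, with 2% removed at each end, were 500.3 to 500.4 on all arrays, so arrays were taken as scaled and were not normalized again. Values below the 25th percentile (46.9) were set to it and log2 was taken, which understates differences of dim genes. The 66 control probe sets were left out. Symbols came from the platform annotation (10855 probe sets with 1 symbol, 396 with several, 1193 not listed), updated through Entrez identifiers found for 10839 in a mouse gene table of GRCm38.p6. A gene with several probe sets was represented by its brightest (highest mean log2). Testing required values above the floor on 5 or more of the 16 arrays.

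A single limma model (version 3.58.1, R 4.3.3; lmFit, eBayes) held all 3 groups, with 13 residual degrees of freedom and two-sided p-values adjusted by Benjamini-Hochberg over 7455 genes at 0.05. It was tested on simulated data first. The number of arrays limits the precision. Groups and replicate numbers came from the sample titles. The genes, lists and alternatives were chosen with earlier results of these data known. Named were the 9 genes, all measured genes of the laminin, integrin and hemidesmosome lists, per comparison and other list up to 6 genes past the threshold with the smallest p, defining cell markers, and the 4 genes nearest in pattern to Lamb3, Itgav, Itgb4, Lama2 and Lama5. Numbers were not taken to pair samples, since the labels do not say that they do. Same-numbered arrays correlated between -0.27 and 0.40, which cannot decide it, as differently numbered arrays were not compared. The 30 alternatives covered scaling, floor, filter, probe sets, replicate block, weights, variance model, samples fitted, 2 quality covariates, the WT arrays used and each array left out. Each other probe set of a gene was added after seeing the data. Figures used matplotlib 3.10.9 in Python 3.11.15.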

Additional observations from a re-analysis of the deposited data

Results flagged for a closer look

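Of 114 groups of arrays examined for a single value far from the rest, 7 had one, and chance gives about 1 in 20. In 3 of the 7, on probe sets of Itgav, Itga4 and Dpt, all other arrays of the group had been raised to the floor, so that any single value above it stands apart by construction, and these 3 are not to be set against that share. Among the laminin and integrin genes, probe set 98366_at of Itgav had 57.5 on adenoma 2 with the other 4 adenoma arrays at the floor of 46.9. Itga4 likewise had 97.5 on adenoma 4 with the others at the floor. Npnt had 957.6 on adenoma 5, against 454.1 to 538.1 on the other adenoma arrays, and Sdc1 had 978.0 on carcinoma 5, against 651.1 to 712.9 on the other carcinoma arrays. Among the cell type markers, Dpt had 227.5 on carcinoma 4 with the others at the floor, Acta2 had 649.6 on WT 4, against 2334.9 to 3206.7 on the other WT arrays, and Myl9 had 1508.5 on WT 5, against 674.1 to 884.4.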

How the results depend on the processing

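With each array left out in turn, 5 to 6 of the 9 laminin and integrin genes were called against WT in each tumour and 0 between the tumours, while 494 to 775 of all genes were called in carcinoma and 384 to 681 in adenoma. Nothing is read from counts of the 9, which were chosen on these contrasts. Of the 75 surrounding genes 6 to 9 were called in each tumour (6 in adenoma without adenoma 2, 6 in carcinoma without WT 4) and 0 between them. Of the 66 cell markers 6 to 11 were called in carcinoma, 5 to 11 in adenoma (5 without adenoma 5) and 0 between them. With the Gapdh ratio as a covariate, 3 of the 9 genes were called in each tumour, 1 surrounding gene in carcinoma and 0 in adenoma, and 2 cell markers in each. With WT 3 and WT 6 as the only WT arrays, 3 surrounding genes were called in carcinoma and 2 in adenoma, and 4 and 3 cell markers. A floor at the 40th percentile gave 13 surrounding genes in carcinoma, and aligned medians 14 cell markers. Between the tumours, 1 cell marker was called with that floor, 2 with array weights, 1 with a variance trend and 1 with the spike-in covariate. With the replicate number as a block, 6 and 5 of the 9 genes and 11 and 9 surrounding genes were called in carcinoma and adenoma, with 842 and 728 of all genes. Directions turned for Itgb1bp1 with the mean of its probe sets (0.0471 in carcinoma, 0.00914 in adenoma), for Fabp2 in adenoma with the Gapdh covariate (0.00748), for Itgav with probe set 98366_at (-0.0742 and -0.394), for Lamc1 with 102404_at (-0.78 and -1.05) and with the mean of its probe sets (-0.18 and -0.30), and for Col1a1 with its second probe set (-1.08 and -0.93). Of all genes, 675 were called in carcinoma and 617 in adenoma, 100 and 70 with the Gapdh covariate, 382 and 398 with the spike-in covariate, 217 and 196 with only those 2 WT arrays, and 384 in adenoma without adenoma 5. Between the tumours the count was 2, and 0 to 18 under the alternatives. The causes were not tested. Signal near the floor limits Lama2, Lamb2, the WT level of Lama3, Lama5 and Lamb3, and Itga4.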
